A study of Homo sapiens with 6 samples.

Results

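The ABC transporters are the 45 protein-coding genes of the deposited table whose symbol is ABC, a subfamily letter from A to G and a number, out of 58735 genes in all. They comprise 12 ABCA, 9 ABCB, 11 ABCC, 4 ABCD, 1 ABCE, 3 ABCF and 5 ABCG genes, and 1 further ABC-named row, the pseudogene ABCC13, was left out by its biotype. The naming rule also leaves out CFTR, TAP1 and TAP2, which belong to the ABCC and ABCB subfamilies under other names, and their values are given separately. Of the 45 genes 29 passed a filter on low counts and were tested, and 16 did not.

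RNA came from MDA-MB-231, an established human line of triple-negative breast cancer. Of the 6 libraries 3 are labelled PM2.5, exposed to fine airborne particulate matter, and 3 are labelled Control, in a study of how this pollutant bears on the malignant progression of the subtype. RNA was taken after 48 h of exposure. The sources used here give neither the dose or origin of the particles nor the vehicle of the controls. The design text calls the replicates biological without saying how separate the cultures were, so p-values measure the spread between these libraries.

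Total counts ran from 32187965 to 34691009 in PM2.5-labelled libraries and from 31846136 to 33495707 in Control-labelled ones. The line's markers VIM and CD44 averaged 2683 and 1545 CPM (counts scaled to the library total after TMM adjustment of that total) in PM2.5-labelled libraries and 2290 and 1525 CPM in Control-labelled ones, while ESR1, the oestrogen receptor, was at 0 counts throughout. Haem oxygenase HMOX1, which particulate matter is known to induce, averaged 51.3 ± 6.0 CPM in PM2.5-labelled libraries and 813 ± 58.3 CPM in Control-labelled ones (SD, n = 3 each). CYP1A1, which particle-bound hydrocarbons are known to induce, averaged 2.73 ± 0.65 CPM in PM2.5-labelled libraries and 6.29 ± 1.73 CPM in Control-labelled ones (SD, n = 3 each). Both genes thus ran opposite to the known response, and whether the group labels could have been exchanged cannot be told from the files. Directions follow the labels, and an exchange would turn every one of them. Control replicate 3 stood apart from its group on the second principal component (score -36.9, against 16.5 and 14.8 in Control replicates 1 and 2). It held the highest Control level of 15 of the 29 tested ABC genes and of 6 of the 9 that passed the test.

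ABC proteins bind and hydrolyse ATP on a pair of nucleotide-binding domains, and most of them use that energy to move a substrate through a membrane. Some carry both domains in 1 chain, whereas ABCG2, the ABCD proteins and others have only 1 such domain and have to pair up. In tumour cells the family is best known for pumping out chemotherapeutic drugs through ABCB1, ABCC1 and ABCG2. Other members export cholesterol and phospholipids (ABCA1, ABCG1), bring fatty acids into peroxisomes (ABCD2 and ABCD3 among them) or serve mitochondrial haem and iron-sulfur metabolism (ABCB6, ABCB8, ABCB10). ABCE1 and the ABCF proteins have no membrane domain and act on ribosomes and translation.

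Of the 29 tested genes 2 rose and 7 fell in PM2.5-labelled libraries at an adjusted p under 0.05 (edgeR quasi-likelihood test, Benjamini-Hochberg over all 14975 tested genes). ABCA2 and ABCC4 rose, and those that fell included ABCG2, ABCA1, ABCC3, ABCC5, ABCF2 and ABCC10. In RNA from whole cultures, fewer cells with a transcript and less of it per cell cannot be told apart. The called share of 31.0% lies at the background of 31.9% of all tested genes, where 16.1% were higher and 15.8% lower. The median log2 change of the tested ABC genes was 0.01, beside -0.01 over all tested genes, and the median size of change was 0.18, beside 0.30. Changes of at least 2-fold were called for 3 of the 29 (ABCG2, ABCA1 and ABCC3), with 7.22% of all tested genes called at that size. For 12 of the 29 genes no library of one group fell within the range of the other, beside 44.3% of all tested genes.

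**Figure D1:**
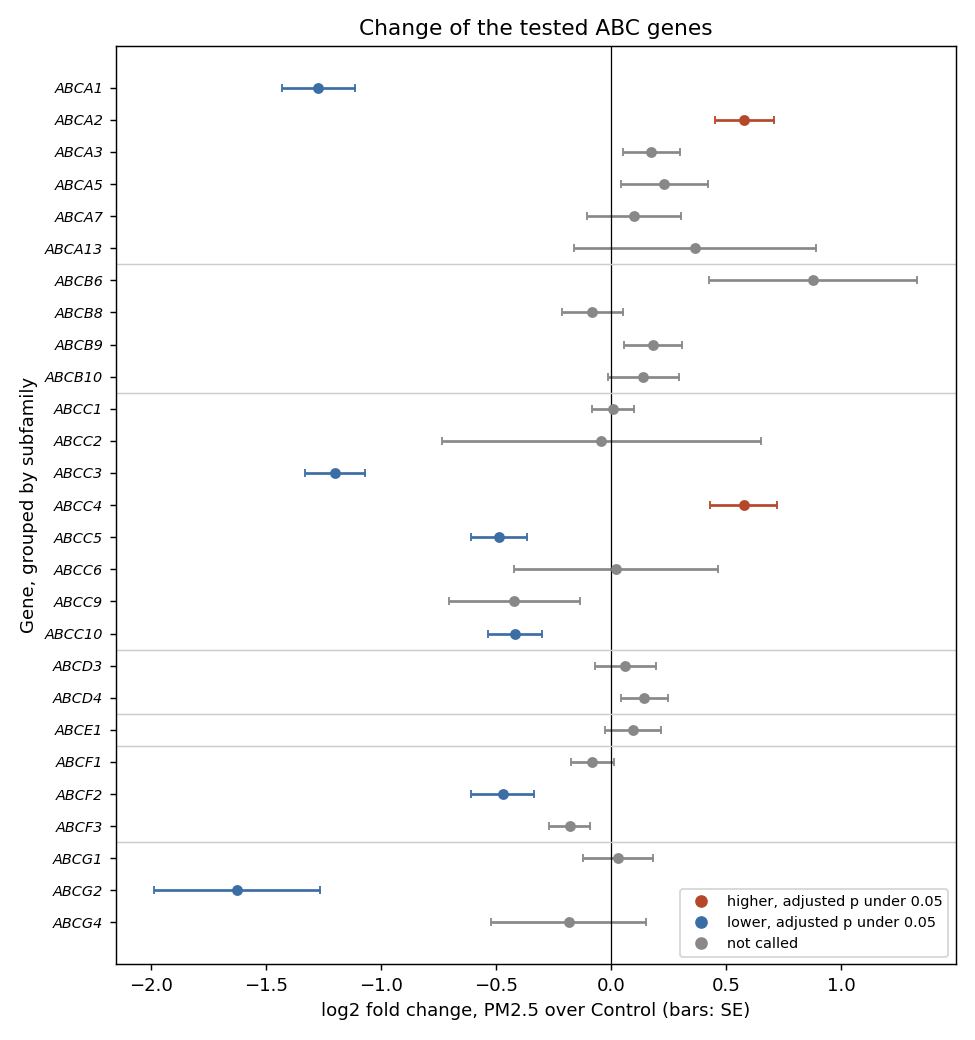
Log2 fold change of 27 of the 29 tested ABC genes, PM2.5 over Control (horizontal axis, bars show the SE), grouped by subfamily down the page. ABCG2, ABCA1 and ABCC3 lie furthest to the left at -1.63, -1.27 and -1.20, and ABCA2 and ABCC4 are the called genes on the right at 0.58 each.

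By subfamily, 1 of the 6 tested ABCA genes rose and 1 fell. Of the 8 tested ABCC genes 1 rose and 3 fell. The ABCB subfamily had no called gene among 5 tested. Of the tested ABCF and ABCG genes, 3 in each subfamily, 1 fell in each, and ABCE1 was not called. Over all tested genes 16.1% were higher and 15.8% lower, and differences between subfamilies were not tested.

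The promoter windows of 4 of these genes are shown because they are the called genes of largest change in each direction with an entry in the RefSeq table (GRCh38.p14), a pair that fell and a pair that rose. Entries were found for 35 of the 45 genes, in 53 windows, and for 7 of the 9 called genes, in 13 windows. ABCC3 is among the genes outside it. Each sequence below is the 250 bases before an annotated start site, and for ABCG2, which has 5 windows, and ABCA2, which has 2, it is a window with the most matches among them. Capitals mark letters matching TGACNNNGC, the core of the antioxidant response element bound by NRF2, GCGTG, the core bound by the aryl hydrocarbon receptor, or CACGTG, the E-box, on either strand. Over all ABC windows 61 matches were found, and 2 pairs of matches to different motifs shared bases, neither in a window shown.
ABCA1, chr9:104928156-104928405, minus strand: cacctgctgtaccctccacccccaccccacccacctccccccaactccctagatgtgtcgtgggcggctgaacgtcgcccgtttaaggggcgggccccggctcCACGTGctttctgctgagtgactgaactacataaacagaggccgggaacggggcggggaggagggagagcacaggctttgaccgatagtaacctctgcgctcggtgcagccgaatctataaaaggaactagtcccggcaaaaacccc
ABCG2, chr4:88158860-88159109, minus strand: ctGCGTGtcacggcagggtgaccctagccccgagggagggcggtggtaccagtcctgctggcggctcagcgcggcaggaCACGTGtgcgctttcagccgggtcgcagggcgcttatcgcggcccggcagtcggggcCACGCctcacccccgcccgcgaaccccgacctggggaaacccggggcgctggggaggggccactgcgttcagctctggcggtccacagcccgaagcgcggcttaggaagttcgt
ABCC4, chr13:95301452-95301701, minus strand: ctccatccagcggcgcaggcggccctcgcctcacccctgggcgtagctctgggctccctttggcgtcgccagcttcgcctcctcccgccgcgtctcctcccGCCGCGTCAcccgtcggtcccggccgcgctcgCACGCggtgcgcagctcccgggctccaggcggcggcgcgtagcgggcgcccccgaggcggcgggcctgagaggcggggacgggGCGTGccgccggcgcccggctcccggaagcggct
ABCA2, chr9:137028923-137029172, minus strand: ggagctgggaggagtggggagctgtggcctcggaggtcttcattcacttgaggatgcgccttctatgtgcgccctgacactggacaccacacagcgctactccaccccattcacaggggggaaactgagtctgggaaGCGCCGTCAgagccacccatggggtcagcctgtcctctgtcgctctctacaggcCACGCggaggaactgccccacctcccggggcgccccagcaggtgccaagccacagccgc

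The ABCA1 window held 1 match, an E-box, and neither of the other cores. The ABCG2 window held the aryl hydrocarbon receptor core on both strands and 1 E-box. ABCC4 and ABCA2, which rose, each held 1 antioxidant core on the reverse strand and 2 and 1 aryl hydrocarbon receptor cores. In windows of 250 bases before to 50 after a start, GCGTG was present in 9 of the 13 windows of called genes, in 43.4% of the 53 ABC windows and in 36.5% of all 35116 windows of the table. TGACNNNGC was present in 4 of the 13, in 22.6% of ABC windows and in 13.3% of all windows. CACGTG was present in 4 of the 13, in 9 of the 53 ABC windows and in 7.26% of all windows. Windows of 1 gene can overlap, and a match is a description of letters only.

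Levels of the family can be compared only per gene length. In CPM per kilobase, ABCF1 was the highest member in both groups, at 29.2 in PM2.5-labelled libraries and 30.9 in Control-labelled ones. In the libraries labelled PM2.5 it was followed by ABCC1 (15.1) and ABCF3 (13.5), and ABCC3 (6.06) stood at rank 5. In the libraries labelled Control the order was ABCF3 (15.2), ABCC1 (15.0) and ABCC3 (13.9), at rank 4. In Control each of these 3 overlapped its neighbour in that order over the libraries, and in PM2.5-labelled libraries ABCC1 and ABCF3 did. ABCA1 stood at rank 17 of the 45 in PM2.5-labelled libraries, against rank 8 in Control-labelled ones.

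**Figure D2:**
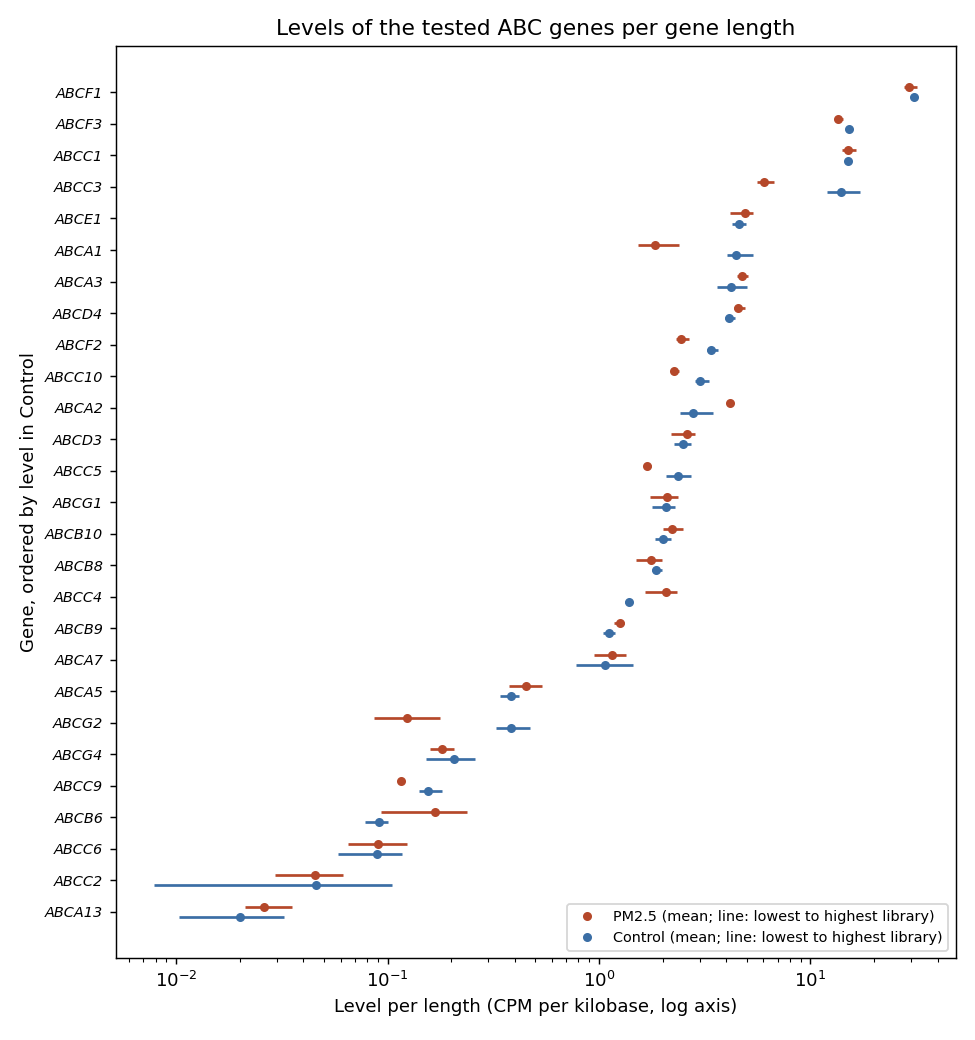
Level per gene length of 27 of the 29 tested ABC genes (horizontal log axis, CPM per kilobase), ordered by the Control mean, with a point for the mean and a line for the lowest to highest of 3 libraries in each group. The levels run from 0.0201 CPM per kilobase for ABCA13 to 30.9 for ABCF1 in Control, and the 2 groups separate for ABCC3, ABCA1 and ABCG2 among others.

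The summed level of all 45 genes averaged 773 ± 30.6 CPM in PM2.5-labelled libraries and 896 ± 65.3 CPM in Control-labelled ones (SD, n = 3 each), a difference of -123 CPM. ABCC3 alone differed by -75.7 CPM and ABCA1 by -29.7 CPM. ABCF1, ABCC1, ABCF3 and ABCC3 together held 48.6% of the summed ABC CPM in PM2.5-labelled libraries and 52.2% in Control-labelled ones. These sums and shares are of CPM not divided by gene length, so they are shares of reads.

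Among exporters of cholesterol and phospholipid, ABCA1 fell and the others were not called. ABCA1, which loads cellular cholesterol onto apolipoprotein A-I, maps to chr9:104781002-104928237 of GRCh38, minus strand (ENSG00000165029). It had 17.3, 27.1 and 18.6 CPM in PM2.5-labelled libraries, against 45.8, 45.7 and 60.5 CPM in Control-labelled ones. Every PM2.5 library lay below every Control library, with PM2.5 replicate 2 the highest of its group. The log2 change was -1.27 ± 0.16 (SE; adjusted p = 1.65e-05, quasi-likelihood test), or 2.42-fold lower, and -1.13 without Control replicate 3.

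ABCG1, which passes cholesterol on to high-density lipoprotein, had 13.6, 10.7 and 14.4 CPM in PM2.5-labelled libraries, against 14.1, 11.0 and 12.9 CPM in Control-labelled ones. These ranges overlap, and the log2 change was 0.03 ± 0.15 (SE). ABCA7, a phospholipid exporter related to ABCA1, averaged 9.59 ± 1.63 CPM in PM2.5-labelled libraries and 8.94 ± 2.89 CPM in Control-labelled ones (SD, n = 3 each). ABCG4, a relative of ABCG1 found mainly in brain, averaged 1.14 ± 0.15 CPM in PM2.5-labelled libraries and 1.29 ± 0.34 CPM in Control-labelled ones. Neither passed the test.

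Of the lipid transporters of endolysosomes and lamellar bodies, ABCA2 rose. It is best known from lysosomes of myelinating cells, and maps to chr9:137007227-137028922, minus strand (ENSG00000107331). It had 46.7, 48.0 and 49.7 CPM in PM2.5-labelled libraries, against 27.8, 28.6 and 40.1 CPM in Control-labelled ones. The PM2.5 libraries lay close together and above all Control libraries, of which replicate 3 was the highest. The log2 change was 0.58 ± 0.13 (SE; adjusted p = 0.00266, quasi-likelihood test), and 0.77 without Control replicate 3.

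ABCA3, the surfactant lipid pump of lung lamellar bodies, had 36.4, 35.2 and 39.7 CPM in PM2.5-labelled libraries, against 31.2, 28.1 and 39.3 CPM in Control-labelled ones. The groups overlapped through Control replicate 3, and the log2 change of 0.18 ± 0.12 was not called (adjusted p = 0.301 by the quasi-likelihood test). Without Control replicate 3 it was 0.32 and called (adjusted p = 0.0318 by the same test). ABCA5, an endolysosomal transporter, averaged 5.95 ± 1.08 CPM in PM2.5-labelled libraries and 5.06 ± 0.53 CPM in Control-labelled ones (SD, n = 3 each) and was not called.

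Of 12 tested sterol efflux partners and LXR targets 3 rose and 2 fell (median log2 change 0.08). Over all tested genes 16.1% were higher and 15.8% lower. NR1H3, the liver X receptor alpha that switches on ABCA1 and ABCG1, fell by 1.07 ± 0.23 on the log2 scale (SE), at a low level, with 2.55 ± 0.70 CPM in PM2.5-labelled libraries and 5.36 ± 0.82 CPM in Control-labelled ones (SD, n = 3 each). The lysosomal cholesterol exporter NPC1, the other gene of the list that fell, did so by 0.36 ± 0.09. NR1H2, the more abundant liver X receptor beta, is not in this list but among the controlling factors, and fell by 0.40 ± 0.10. The sterol carrier STARD4 rose by 0.77 ± 0.14, a known target of SREBP2. Of 13 tested flippase and scramblase genes of other families 6 rose and 3 fell (median 0.14), beside the same shares of all tested genes. Among these called genes were the scramblase XKR8 (-0.87 ± 0.11), the flippases ATP10D (-1.02 ± 0.14) and ATP9A (-0.66 ± 0.09) and the flippase subunit TMEM30A (0.63 ± 0.11).

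Among exporters of drugs and conjugates 1 of 8 tested genes rose and 4 fell, beside 16.1% and 15.8% of all tested genes. ABCC3 (MRP3), which carries glucuronide and glutathione conjugates and bile salts out of cells, maps to chr17:50634777-50692252, plus strand (ENSG00000108846). It had 56.4, 53.6 and 64.8 CPM in PM2.5-labelled libraries, against 121, 115 and 166 CPM in Control-labelled ones. The groups were far apart, and Control replicate 3 was the highest of all. The log2 change of -1.20 ± 0.13 (SE; adjusted p = 3.56e-06, quasi-likelihood test) was a 2.30-fold fall, and -1.02 without Control replicate 3. It had the smallest adjusted p of the 29 tested genes.

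ABCG2 (BCRP), the breast cancer resistance protein, pumps out drugs, porphyrins and urate and marks the side population of stem-like cells. It maps to chr4:88090264-88231322, minus strand (ENSG00000118777). Its counts were 31, 18 and 15 in PM2.5-labelled libraries, against 55, 77 and 56 in Control-labelled ones, which is 0.893, 0.543 and 0.437 CPM against 1.80, 2.38 and 1.64 CPM. The groups did not overlap although the gene stood near the bottom of the tested members, at rank 25 of the 45 per length in PM2.5-labelled libraries and rank 23 in Control-labelled ones. The log2 change was -1.63 ± 0.36 (SE; adjusted p = 0.00275, quasi-likelihood test), and it ran from -1.97 without PM2.5 replicate 1 to -1.43 without PM2.5 replicate 3.

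ABCC4 (MRP4), an exporter of cyclic nucleotides and prostaglandins, was the drug exporter that rose. It maps to chr13:95019829-95301475, minus strand (ENSG00000125257). It had 19.2, 20.2 and 14.3 CPM in PM2.5-labelled libraries, against 12.2, 12.4 and 11.4 CPM in Control-labelled ones. PM2.5 replicate 3 was the lowest of its group but still above all Control libraries. The log2 change was 0.58 ± 0.15 (SE; adjusted p = 0.00676, quasi-likelihood test).

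ABCC5 (MRP5), which exports cyclic nucleotides and organic anions and maps to chr3:183919934-184018015, minus strand (ENSG00000114770), had 18.7, 20.1 and 19.2 CPM in PM2.5-labelled libraries, against 26.2, 23.9 and 31.1 CPM in Control-labelled ones. All PM2.5 libraries were lower, with a log2 change of -0.49 ± 0.12 (SE; adjusted p = 0.00666, quasi-likelihood test), and -0.38 without Control replicate 3.

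ABCC10 (MRP7), an exporter of taxanes at chr6:43427366-43450430, plus strand (ENSG00000124574), had 17.9, 17.6 and 19.3 CPM in PM2.5-labelled libraries, against 23.1, 23.3 and 26.8 CPM in Control-labelled ones. The groups did not overlap, and the log2 change was -0.42 ± 0.12 (SE; adjusted p = 0.0128, quasi-likelihood test). The call was lost without PM2.5 replicate 1 (adjusted p = 0.0776 by the same test).

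ABCC1 (MRP1), the exporter of glutathione conjugates that was the second most abundant member per length in PM2.5-labelled libraries, was not called. It had 112, 107 and 124 CPM in PM2.5-labelled libraries, against 112, 112 and 118 CPM in Control-labelled ones, and a log2 change of 0.01 ± 0.09 (SE). ABCC2 (MRP2), the apical conjugate pump of hepatocytes, had 8, 16 and 12 counts in PM2.5-labelled libraries, against 6, 2 and 28 in Control-labelled ones, where replicate 3 held most of them. ABCC6, which promotes release of ATP from liver cells, had 17, 21 and 32 counts in PM2.5-labelled libraries, against 27, 23 and 15 in Control-labelled ones. Its near-identical pseudogenes ABCC6P1 and ABCC6P2 had 8 to 18 and 6 to 12 counts in PM2.5-labelled libraries, and 7 to 23 and 13 to 37 in Control-labelled ones. The level of ABCC6 itself is therefore uncertain.

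ABCB1 (P-glycoprotein), the classic multidrug exporter, had 4, 0 and 0 counts in PM2.5-labelled libraries and 0 in each library labelled Control. A count of 0 allows up to 3 counts, or 0.0864 to 0.0980 CPM in these libraries, counting error only. ABCC11 had 0 counts in each library labelled PM2.5, against 2, 0 and 8 in Control-labelled ones. ABCC12 had 3, 0 and 0 counts in PM2.5-labelled libraries, against 0 in each library labelled Control. ABCB5 had none in any library. None of these 4 passed the filter on low counts.

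**Figure D3:**
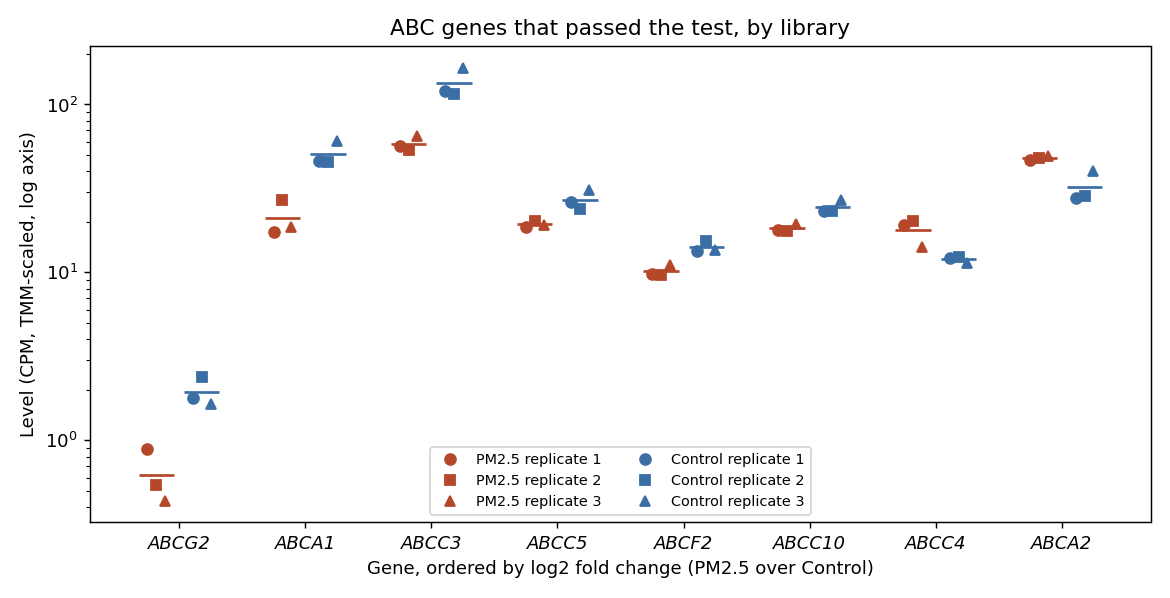
Level in each library (vertical log axis, CPM) of 8 of the 9 ABC genes that passed the test, with the 3 libraries labelled PM2.5 left of the 3 labelled Control and a bar at each mean. The groups do not overlap for any of these 8, and ABCG2, between 0.437 and 2.38 CPM, lies far below the others.

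Of 13 tested enzymes that make or conjugate glutathione or otherwise feed ABCC export, 10 fell and 0 rose (median log2 change -0.56), beside 15.8% of all tested genes that were lower. This list was chosen with earlier results of these data known. The microsomal glutathione transferase MGST1 fell by 1.52 ± 0.09 on the log2 scale (SE). GCLM, the modifier subunit of glutamate-cysteine ligase, fell by 1.02 ± 0.09, and glutathione synthetase GSS by 0.56 ± 0.10. The transferase GSTO1 fell by 0.75 ± 0.11. Members of this list that are glutathione transferases of 1 class resemble one another in sequence.

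Of 9 tested exporters and carriers of other families 1 rose and 3 fell (median -0.04), beside 16.1% and 15.8% of all tested genes. The organic anion transporter SLCO4A1 rose by 1.20 ± 0.15 on the log2 scale (SE), whereas SLC22A18 fell by 0.85 ± 0.14, the nucleoside transporter SLC29A2 by 0.78 ± 0.14 and the major vault protein MVP by 0.30 ± 0.10.

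Of the peroxisomal importers, ABCD3, which imports branched fatty acids and bile acid precursors, had 20.9, 21.6 and 16.6 CPM in PM2.5-labelled libraries, against 17.1, 18.8 and 20.7 CPM in Control-labelled ones, overlapping ranges with a log2 change of 0.06 ± 0.13 (SE). ABCD2, an importer of very long chain fatty acids, had no counts in any library. Of 12 tested peroxisomal partners 6 fell and 0 rose (median -0.36), beside 15.8% and 16.1% of all tested genes. PEX16, which helps to build the peroxisomal membrane, fell by 0.63 ± 0.11, the thiolase ACAA1 by 0.44 ± 0.11 and the thioesterase ACOT8 by 0.42 ± 0.12. Exons of other genes cover 35.3% of the exonic bases of ACOT8 and 21.2% of those of ACAA1.

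Of the transporters tied to mitochondria, ABCB6, ABCB8 and ABCB10 were not called. ABCB8, linked to iron export from mitochondria, averaged 16.4 ± 2.32 CPM in PM2.5-labelled libraries and 17.3 ± 1.09 CPM in Control-labelled ones (SD, n = 3 each). ABCB10, needed for haem synthesis in red cell precursors, averaged 9.46 ± 1.10 CPM in PM2.5-labelled libraries and 8.58 ± 0.72 CPM in Control-labelled ones (SD, n = 3 each).

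ABCB6, a porphyrin transporter, had 17, 41 and 31 counts in PM2.5-labelled libraries, against 15, 17 and 14 in Control-labelled ones. Its log2 change of 0.88 ± 0.45 (SE) was the highest of the tested members and was not called (adjusted p = 0.153 by the quasi-likelihood test). Exons of a same-strand overlapping gene cover 54.7% of its exonic bases, so its level is uncertain. Of 19 tested mitochondrial haem and iron-sulfur partners 5 fell and 0 rose (median -0.26), beside 15.8% and 16.1% of all tested genes. Those that fell included UROD (-0.49 ± 0.11) and TMEM14C (-0.42 ± 0.09) of haem synthesis and CIAO1 (-0.38 ± 0.10) and NFS1 (-0.35 ± 0.10) of iron-sulfur assembly.

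Transporters of peptides and vitamin B12 were not called. ABCB9, a lysosomal peptide transporter, had 15.6, 17.3 and 17.5 CPM in PM2.5-labelled libraries, against 15.8, 14.6 and 13.96 CPM in Control-labelled ones. The groups overlapped by Control replicate 1, and exons of other genes on the opposite strand cover 24.5% of its exonic bases, whose reads cannot be told apart without a stated strand setting. ABCD4, which releases vitamin B12 from lysosomes, had 38.1, 38.6 and 43.0 CPM in PM2.5-labelled libraries, against 34.7, 34.9 and 38.6 CPM in Control-labelled ones, with a log2 change of 0.15 ± 0.10 (SE).

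TAP1 and TAP2, which pair to carry peptides to class I molecules, averaged 220 ± 17.4 and 31.5 ± 1.44 CPM in PM2.5-labelled libraries and 208 ± 12.9 and 26.6 ± 0.40 CPM in Control-labelled ones (SD, n = 3 each). Neither passed the test (adjusted p = 0.575 and 0.0848 by the quasi-likelihood test). Of their 10 tested loading partners 4 rose and 0 fell (median 0.19), beside 16.1% and 15.8% of all tested genes. Those that rose included the chaperones CALR (0.99 ± 0.12) and PDIA3 (0.71 ± 0.11) and the peptide trimmer ERAP1 (0.65 ± 0.11). Exons of a same-strand gene cover 32.3% of the exonic bases of TAP2. CFTR, the chloride channel of the ABCC subfamily, had no counts.

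Of the ABC proteins that act on ribosomes, ABCF2 fell. It maps to chr7:151212490-151227230, minus strand (ENSG00000033050). It had 9.77, 9.65 and 11.1 CPM in PM2.5-labelled libraries, against 13.5, 15.3 and 13.5 CPM in Control-labelled ones. The groups did not overlap, and the log2 change was -0.47 ± 0.14 (SE; adjusted p = 0.0156, quasi-likelihood test). The call was lost without PM2.5 replicate 1, PM2.5 replicate 2 or Control replicate 2, and exons of a same-strand overlapping gene cover 45.8% of its exonic bases.

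ABCF1, which binds initiation factor eIF2, had 125, 127 and 145 CPM in PM2.5-labelled libraries, against 138, 144 and 138 CPM in Control-labelled ones, with a log2 change of -0.08 ± 0.09 (SE). ABCF3 had 68.0, 67.9 and 74.3 CPM in PM2.5-labelled libraries, against 81.5, 76.7 and 80.0 CPM in Control-labelled ones, lower without overlap but not called (log2 change -0.18 ± 0.09, SE). ABCE1, which splits ribosomes after termination, averaged 30.8 ± 4.14 CPM in PM2.5-labelled libraries and 28.8 ± 2.25 CPM in Control-labelled ones (SD, n = 3 each). Of 13 tested ribosome partners 1 rose, the release factor GSPT1 (0.26 ± 0.09), and 0 fell (median 0.03). Over all tested genes 16.1% were higher and 15.8% lower.

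**Figure D4:**
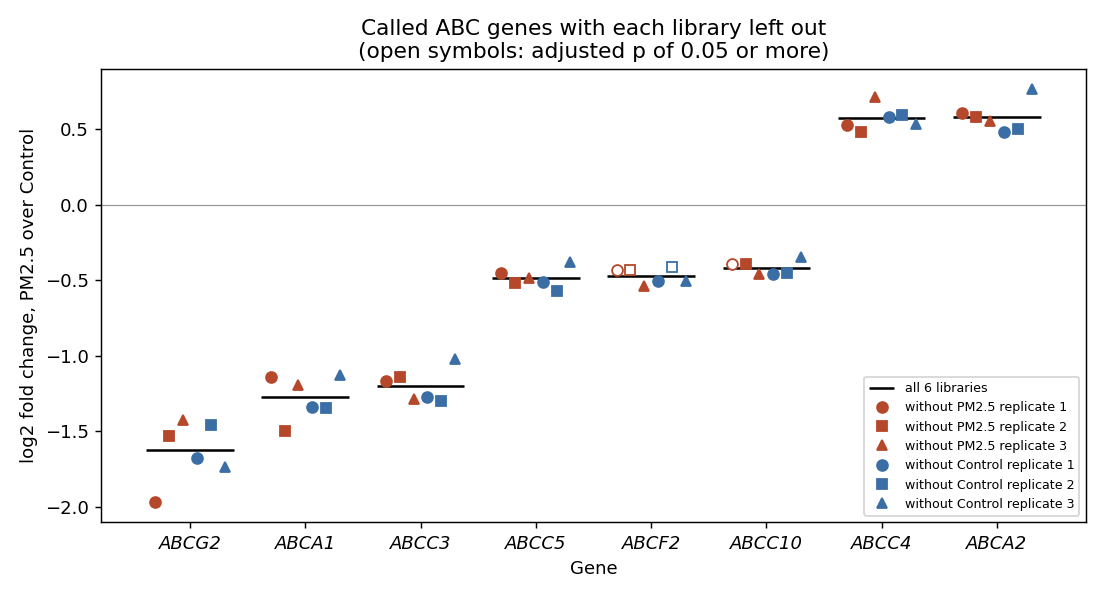
Log2 fold change (vertical axis, PM2.5 over Control) of 8 of the 9 called ABC genes with all 6 libraries (black bars) and with each library left out (symbols, open where the adjusted p was 0.05 or more). ABCF2 loses its call in 3 of the 6 fits and ABCC10 in 1, and none of these 8 changes direction.

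Potassium channel subunits were scarce. ABCC9, the sulfonylurea receptor of smooth and cardiac muscle, had 48, 43 and 46 counts in PM2.5-labelled libraries, against 64, 53 and 57 in Control-labelled ones. These did not overlap, but the log2 change of -0.42 ± 0.28 (SE) was not called. ABCC8, the receptor of pancreatic beta cells, had no counts. Their channel partner KCNJ11 was called higher at a low level, with 1.36 ± 0.40 CPM in PM2.5-labelled libraries and 0.525 ± 0.363 CPM in Control-labelled ones (SD, n = 3 each), a log2 change of 1.36 ± 0.47 (SE).

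The genes that did not pass the filter are mostly known from other tissues. ABCA6, ABCB5, ABCB11, ABCC8, ABCD2 and ABCG5 had 0 counts in all 6 libraries. ABCB11 and ABCB4 export bile salts and phospholipid from hepatocytes, and ABCG5 and ABCG8 form the sterol pump of liver and gut. ABCB4 had 2 counts in all and ABCG8 had 1. ABCA12, the lipid transporter of keratinocytes, had 2. ABCA4, the retinoid flippase of photoreceptors, had 14, 14 and 7 counts in PM2.5-labelled libraries, against 5, 3 and 5 in Control-labelled ones. With no filter on low counts 39 ABC genes could be fitted, and 0 of the 10 added genes were called. ABCA13, which passed the filter, had 14, 14 and 23 counts in PM2.5-labelled libraries, against 6, 11 and 21 in Control-labelled ones, and was not called.

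Some neighbouring members differed widely in level, and others did not. ABCA8, ABCA9, ABCA6, ABCA10 and ABCA5 lie side by side on the minus strand of chromosome 17 within 459953 bases. ABCA5 had 169 to 235 counts per library labelled PM2.5 and 137 to 188 per library labelled Control. ABCA8 had 3, 6 and 2 counts and ABCA10 had 14, 2 and 0 counts in PM2.5-labelled libraries, against 0, 2 and 10 and 0, 1 and 6 in Control-labelled ones. ABCA9 had 4 counts in all. On chromosome 16, ABCC1 ends 5853 bases from ABCC6, and its level per length was 15.1 CPM per kilobase in PM2.5-labelled libraries, against 0.0906 for ABCC6 in the same libraries. The level of ABCC6 is uncertain because of its near-identical pseudogenes. ABCB8 and ABCF2, 164707 bases apart on chromosome 7, differed less. They stood at 1.76 and 2.44 CPM per kilobase in PM2.5-labelled libraries and 1.86 and 3.37 in Control-labelled ones. Exons of a same-strand gene cover 45.8% of the exonic bases of ABCF2, so its level is uncertain. Of the neighbours ABCB4 and ABCB1, and ABCC12 and ABCC11, none passed the filter on low counts. ABCC5 and ABCF3 lie 168007 bases apart on chromosome 3. ABCC5 fell, and ABCF3 was also lower without overlap but not called (log2 change -0.18 ± 0.09, SE). A difference between the changes of these neighbours was not tested.

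Of 16 tested factors known to control ABC genes 1 rose and 5 fell (median log2 change -0.19). Over all tested genes 16.1% were higher and 15.8% lower. The aryl hydrocarbon receptor AHR, which can induce ABCG2, rose by 0.37 ± 0.10 on the log2 scale (SE), and its partner ARNT fell by 0.30 ± 0.10. ESRRA, an orphan nuclear receptor, fell by 0.37 ± 0.09, beside NR1H3 and NR1H2 above. AHR and ARNT lie outside the 4 smallest p-values of the list and were chosen after their values were seen. Exons of other genes cover 32.3% of the exonic bases of AHR.

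**Figure D5:**
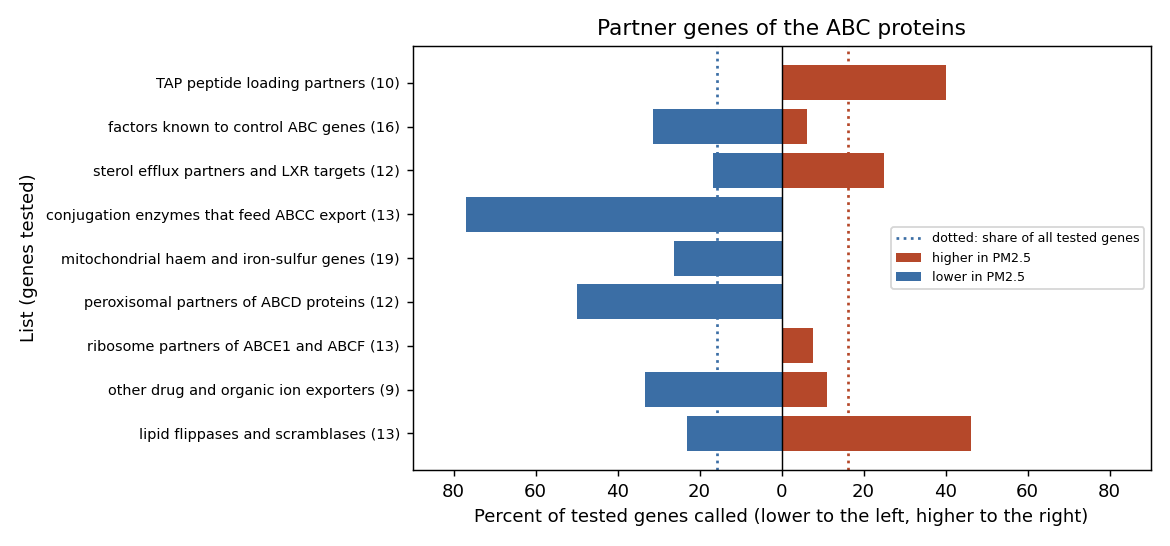
Percent of tested genes called higher (to the right) or lower (to the left) in PM2.5-labelled libraries for 9 lists of partner genes, with the number tested in brackets and dotted lines at the shares of all tested genes, 16.1% higher and 15.8% lower. The enzymes that feed ABCC export reach furthest to the left, with 10 of 13 lower, and the lipid flippases and scramblases furthest to the right, with 6 of 13 higher. The lists were chosen with earlier results of these data known.

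Of 6 markers of the line 3 rose (FN1, SPARC and TGFBI) and 0 fell, beside 16.1% and 15.8% of all tested genes. Of 8 markers of luminal epithelium, which this line largely lacks, 3 were tested, and of these 0 rose and 2 fell (GATA3 and ERBB2). CDH1 and PGR had 2 and 8 counts over the libraries labelled PM2.5 and 1 and 2 over those labelled Control, and KRT19 was abundant in every library. Markers of other cell types were scarce apart from COL1A1 and PECAM1. Of 6 leukocyte markers 3 were at 0 counts, PTPRC and CD3E among them, and in PM2.5-labelled libraries the list summed to between 1.99 and 3.15 CPM, against 0.62 to 0.65 CPM in Control-labelled ones. LYZ and ITGAM of that list were higher in PM2.5-labelled libraries, and of its 2 tested genes 2 were called higher. Of 5 fibroblast markers DCN and LUM were at 0, and in PM2.5-labelled libraries the list summed to between 22.5 and 26.6 CPM, against 18.3 to 26.5 CPM in Control-labelled ones. That sum hides a change, since of the 2 fibroblast markers tested 1 was called higher and 0 lower (median log2 change 2.26). Of 5 endothelial markers PECAM1 held nearly all of the sum, at 55.2 ± 2.26 CPM in PM2.5-labelled libraries and 43.8 ± 5.94 CPM in Control-labelled ones (SD, n = 3 each), and TEK and CDH5 had 1 and 4 counts in all. Among the 3 endothelial markers tested 1 was called higher and 0 lower. The 3 hepatocyte markers summed to 0.117 CPM or less in every library. Their part in the changes of the ABC genes was not tested.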

How the data were processed

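The authors deposited raw counts per gene for the 6 libraries in a single table, with symbols, coordinates and gene lengths, per the file headers. The build was GRCh38, as the submitters' processing notes have it, and aligner, counter and strand handling were not stated there. All 58735 identifiers and positions matched GENCODE release 29, which served for exon overlaps on either strand. Libraries were grouped by their treatment label and matched to columns by title. The ABC genes, partner lists, marker lists and roles were chosen with earlier results of these data known.

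Low genes were removed with filterByExpr (group minimum 10, total minimum 15), leaving 14975. Groups were compared with edgeR 4.0.16 in R 4.3.3 (TMM factors of 0.962 to 1.047, quasi-likelihood test, two-sided, group as the only term, Benjamini-Hochberg adjustment over all tested genes, threshold 0.05). The fit was tested on simulated data. Levels are CPM with TMM factors, divided by the deposited gene length for CPM per kilobase. SEs were computed as absolute log2 change over the root of F. Replicates differed beyond sampling noise (chi-square per degree of freedom of 5.74 to 36.3), so each was kept. By rule, called ABC genes are named with values, as are uncalled ones with a mean of at least 10 CPM in either group, up to 4 called genes per partner list, and CFTR, TAP1 and TAP2. The other uncalled ABC genes were given values after those were seen. Alternatives were RLE factors, DESeq2 1.42.0, limma-voom (limma 3.58.1), no filter, a filter of 1 CPM in 3 libraries, a replicate block and leaving out each library. Promoter windows are RefSeq's (GRCh38.p14). Protein sequences were not used here. Some genes, among them 2 tested ABC genes, enter the fits and counts but are not reported here by name.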

Additional observations from a re-analysis of the deposited data

How the results depend on the processing

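The same 9 ABC genes were called, 2 higher and 7 lower, with RLE factors, DESeq2, limma-voom, no filter on low counts, the stricter filter and the replicate block. Leaving out 1 library gave 2 to 3 higher and 5 to 7 lower: ABCC10 was lost without PM2.5 replicate 1, ABCF2 without PM2.5 replicate 1, PM2.5 replicate 2 or Control replicate 2, and ABCA3 was gained without Control replicate 3. Over all genes the lower calls ran from 1448 without PM2.5 replicate 1 to 2680 without Control replicate 3, against 2365 with all libraries, and the higher calls from 1797 to 2600. Replicate numbers did not pair the libraries: deviations of same-numbered libraries correlated at -0.002, -0.05 and -0.12, and no library correlated best with the one of its own number. With the number as a block 1951 genes were higher and 1826 lower.

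The median log2 change of the tested ABC genes was 0.01, 0.029 with limma-voom, -0.075 with the stricter filter, and -0.062 to 0.028 with 1 library left out. The stricter filter left out ABCA13, ABCB6, ABCC2 and ABCC6, so its median covers fewer genes. The gene at that median, ABCF1, was at -0.075 there and at -0.081 in the main comparison. Directions that turned in any setting belonged to uncalled genes. With 1 library left out, log2 changes ran from -0.083 to 0.38 for ABCA7, -0.18 to 0.023 for ABCB8, -0.054 to 0.053 for ABCC1, -0.54 to 1.44 for ABCC2, -0.27 to 0.25 for ABCC6, -0.0054 to 0.17 for ABCD3, -0.065 to 0.15 for ABCG1 and -0.36 to 0.015 for ABCG4. ABCC1 was at -0.0021 with no filter, and ABCC2 at 0.54 with limma-voom and 0.29 with the block. The cause of these changes of direction was not tested. The filter left out 16 ABC genes, of which 6 had no counts and the other 10 were not called without it.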
